A study of Mus musculus with 208 samples.

Results

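The genes described here are 34 interferon-stimulated genes, taken as a fixed list of gene symbols and followed through every table of the series: laser-captured sebaceous glands (SGs), back skin, distal ileum, liver and single embryos of C57BL/6 mice. The list is 34 of 47231 distinct gene names in those tables, and its members were chosen by name. It holds 2-5A synthetases of the Oas family, the IFIT family and other antiviral effectors, the ISG15 system, nucleic acid sensors, transcription factors, interferon-inducible GTPases and a few other induced genes. Isg15 was not analysed in the ileum; the other members were listed in every table. The question was whether these genes differ in mice or embryos with a germ-free (GF) or T and B cell-deficient parent.

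The series holds 208 samples in 21 groups, each compared with conventionally raised (CR) controls of the same tissue. F0 SGs came from 3 GF and 3 CR mice. F1 SGs came from 3 mice of the GF line, which the labels call only GF and which per the methods were born to dams colonized during pregnancy (GF×GF here), and 2 CR mice (CR×CR here). In every cross the father is named first. F1 skin came from 3 GF×GF and 3 GF×CR mice and 5 CR×CR mice, and F2 skin from 3 GF×GF and 6 GF×CR mice and 5 CR×CR mice. The F2 groups are named after the cross of their grandparents, and the labels do not say which of the study's breeding schemes gave the F2 skin. F1 ileum and liver came from 3 GF×CR and 4 CR×CR mice each. Embryos were sequenced one by one after in vitro fertilization. Per the study, the 4-cell embryos of a group came from only a few fertilizations; the labels do not say which embryos share one, so p-values over embryos may be too small. At the 4-cell stage there were 15 GF×CR, 9 CR×GF and 21 RAG×WT embryos (Rag2-/- sperm, which come from males without T and B cells, and wild-type eggs) against 25 CR×CR embryos. At the morula stage there were 17 GF×CR and 28 RAG×WT embryos against 43 CR×CR embryos. Per the methods the mice were young adults of both sexes, and the labels give neither sex nor litter. Transcripts of 4 Y-linked genes were not detected in any liver but were present in every SG and skin sample. All mice sampled for SGs, skin, ileum and liver are wild type. Nothing states that mice of a group came from separate litters, so p-values measure only the spread between these samples.

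Interferon-stimulated genes are switched on when type I or type III interferon binds its receptor and the kinases JAK1 and TYK2 activate STAT proteins, which together with IRF9 bind a DNA element in the promoters of these genes. Their products sense or degrade viral RNA, block viral entry or translation, or amplify the response, as IRF7 does by driving further interferon production. In skin and gut, low tonic interferon signalling, in part set off by the microbiota, keeps many of these genes at a basal level.

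Promoter sequences are shown for 6 members, because the 2-5A synthetase Oas1f, described below, is the member that differs in F0 glands and is lowest in some of the skin mice in which most other members are high. RefSeq promoter windows (build GRCm38.p6, 250 bases before to 50 bases after the start of transcription) matched 25 of the 34 members; Oas2, Ifi27l2a, Mx1, Mx2, Usp18, Zbp1, Dhx58, Rtp4 and Parp14 had no entry. The interferon response element was searched as GAAA, NN (any bases), GAAA in a row on both strands, with overlapping matches counted. It was found in 16 of the 31 windows of these members (51.6%), which belong to 15 of the 25 genes, and in 3.44% of all 32851 windows. The stretches of 100 bases below run 5′ to 3′ on each gene's own strand, with matches to the element or to its reverse complement in capitals. They are Isg15 at chr4:156200819-156200918 (minus strand), Ifit1 at chr19:34640764-34640863 (plus strand), Ifit3 at chr19:34583354-34583453 (plus strand), Oas1a at chr5:120907526-120907625 (minus strand), Oas1g at chr5:120887614-120887713 (minus strand) and Oas1f at chr5:120847267-120847366 (plus strand).
Isg15: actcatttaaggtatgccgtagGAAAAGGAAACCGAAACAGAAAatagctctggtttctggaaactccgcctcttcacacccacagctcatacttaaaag
Ifit1: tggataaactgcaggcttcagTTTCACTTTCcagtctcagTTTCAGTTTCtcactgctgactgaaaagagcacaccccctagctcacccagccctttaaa
Ifit3: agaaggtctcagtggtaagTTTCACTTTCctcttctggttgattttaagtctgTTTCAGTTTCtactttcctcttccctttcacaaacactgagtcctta
Oas1a: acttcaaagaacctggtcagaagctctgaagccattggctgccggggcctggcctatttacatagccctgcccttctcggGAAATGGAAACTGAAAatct
Oas1g: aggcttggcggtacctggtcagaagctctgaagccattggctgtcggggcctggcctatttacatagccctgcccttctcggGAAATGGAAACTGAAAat
Oas1f: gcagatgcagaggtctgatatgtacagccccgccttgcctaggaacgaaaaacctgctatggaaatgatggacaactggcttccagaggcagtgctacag
The Isg15 stretch holds 3 overlapping matches, and those of Ifit1, Ifit3, Oas1a and Oas1g hold 2 each. The Oas1f window holds none, and neither do those of Oasl1, Oasl2, Ifit2, Ifi44, Irf7, Irf9, Isg20, Xaf1 and Cmpk2. Oas1a and Oas1g share an unbroken run of 56 bases in the stretches shown, while the longest run either shares with Oas1f is 7 bases. A match is a description of these letters only. Oas1a and Oas1g are near-identical neighbours, so reads may have been split between them and their separate values are uncertain. Oas1f lies in the same cluster on chromosome 5, at chr5:120847367-120857986, between Oas1b and Oas1h.

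Values of mouse tissues are CPM, counts scaled to the library's total, and those of embryos are TPM, which are also scaled to transcript length, so levels are compared between genes only in embryos. Differences are on the log2 scale of (value + 0.5) and were tested with limma over all genes of a table, with Benjamini-Hochberg adjustment. The step between low CPM values gave an approximate depth of 3.74 M to 4.75 M reads in F0 SGs, 5.95 M to 18.3 M in F1 SGs, 11.3 M to 24.9 M in skin, 2.59 M to 14.2 M in ileum and 3.41 M to 7.26 M in liver (M, mega), so that 1 CPM stands for about 2.6 reads in the shallowest ileum library. TPM gives no depth. Markers of the labelled tissues were high in them: sebocyte markers summed to 15540 to 22330 CPM in SGs, enterocyte markers to 10690 to 30220 CPM in ileum and hepatocyte markers to 71770 to 116500 CPM in liver. The captured SGs also held fibroblast markers at 799.8 to 12170 CPM.

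The mean log2 level of the members overlapped between groups in every tissue. In F0 SGs it was 2.07, 2.27 and 1.81 in GF mice and 1.64, 1.90 and 1.77 in CR mice, and in F1 SGs 1.67, 1.63 and 1.46 in GF×GF mice and 1.39 and 1.71 in CR×CR mice. The groups overlapped in both generations. In ileum it was 4.72, 4.69 and 4.82 in GF×CR mice and 5.01, 4.40, 3.97 and 4.63 in CR×CR mice, and in liver 3.16, 3.43 and 2.93 in GF×CR mice and 3.37, 3.02, 3.23 and 3.24 in CR×CR mice. Here too the groups overlapped. In F1 skin 1 GF×CR mouse stood above all others (4.18, 4.48 and 6.05 in GF×CR mice against 4.15, 4.91, 4.33, 4.24 and 4.56 in CR×CR mice), and in F2 skin 2 CR×CR mice did (lowest 3.35, median 4.45 and highest 5.11 over 6 GF×CR mice, against 5.84, 3.85, 4.49, 3.81 and 5.67 in CR×CR mice). These levels are a description, since the tables were normalized separately and a score over the members was not tested.

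**Figure D1:**
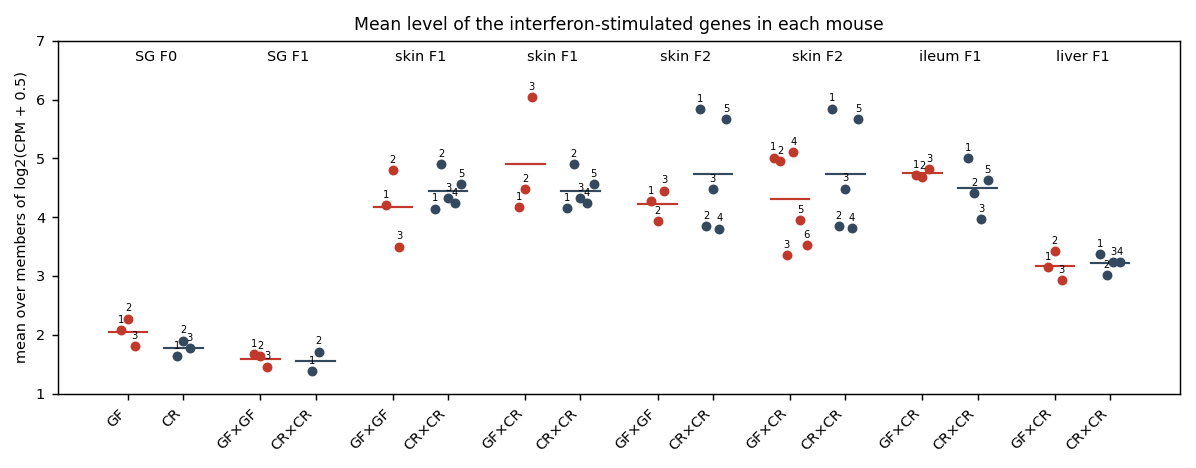
Mean over the members of log2(CPM + 0.5) (vertical axis) in each numbered mouse of each tissue and generation, with the group mean as a line. GF×CR mouse 3 of F1 skin, at 6.05, and CR×CR mice 1 and 5 of F2 skin, at 5.84 and 5.67, lie above the other mice of their tables.

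Among 29 members tested in F0 SGs, 1 was higher in GF than in CR glands and none was lower, while 2.2% of all genes passed (adjusted p under 0.05). It was Oas1f, a member of the 2-5A synthetase family, whose best known enzymes make the 2′-5′ oligoadenylate that activates RNase L. Oas1f was at 17.2, 20.8 and 19.04 CPM in GF glands, against 2.56, 1.147 and 2.11 CPM in CR glands. The 3 GF values lay close together and far above the CR values. The log2 difference was 3.04 ± 0.32 (SE, adjusted p = 0.0061, limma, Benjamini-Hochberg, n = 3 each), and it was past the threshold in 12 of 13 alternatives. With the mean log2 level of 4 Y-linked genes as a covariate (6.53 to 6.63 in GF and 6.48 to 6.55 in CR mice) it was 3.39 at an adjusted p of 0.118 in the same test. In that fit 0 genes of any kind passed, against 327 without it. These Y-linked levels were high and close together in every gland, so the covariate carried no contrast between sexes.

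No other member passed in F0 glands, and at an unadjusted p under 0.05 Oas1f was again the only one of 29, beside 19.8% of all genes. The neighbouring synthetases Oas1a and Oas1g stayed below the filter, with 0.844, 0.492 and 1.06 CPM of Oas1a in GF and 0.681, 0.922 and 0.852 CPM in CR glands. Irf7, the transcription factor that amplifies interferon production, was at 6.44, 8.47 and 5.86 CPM in GF glands against 4.25, 4.71 and 3.41 CPM in CR glands, with no overlap. Its log2 difference of 0.68 ± 0.30 (SE, adjusted p = 0.254, limma, Benjamini-Hochberg) did not pass. Cmpk2, a nucleotide kinase of mitochondria, was at 2.11, 3.45 and 0.533 CPM in GF and 0.227, 0.230 and 1.12 CPM in CR glands, and did not pass either. The members' median log2 difference was 0.18, beside 0.14 over all genes. Oasl1, Isg20 and Rtp4 were also below the filter, Rtp4 at 0 in every F0 gland.

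Sums of macrophage markers also stood higher in the F0 GF glands, while sums of fibroblast markers overlapped, and no single marker passed. Macrophage markers summed to 51.2 to 83.1 CPM in GF and 28.04 to 49.1 CPM in CR glands, with 0 of 7 tested markers passing and 3 higher at an unadjusted p under 0.05. Fibroblast markers summed to 6100 to 12200 CPM in GF and 4300 to 6840 CPM in CR glands, with 0 of 6 passing and all 6 higher at an unadjusted p under 0.05. Over all genes 19.8% were past that unadjusted threshold in either direction, and 65.8% had a difference above 0. Sums of the other cell types are not given for this comparison. No marker of either list was at 0 in all glands. Their part in the Oas1f difference was not tested. In bulk samples, fewer cells of a type and less RNA per cell cannot be told apart.

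In F1 SGs the Oas1f difference did not pass. Oas1f was at 12.5, 19.4 and 13.4 CPM in GF×GF mice, against 12.6 and 8.74 CPM in CR×CR mice. The groups overlapped, and both F1 CR×CR glands stood above the 3 F0 CR glands, although F0 and F1 glands are in separately normalized tables and the generations were not tested against each other. The log2 difference was 0.48 ± 0.30 (SE, adjusted p = 0.552, limma, Benjamini-Hochberg).

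None of 26 members tested in F1 SGs passed in limma, beside 0.717% of all genes. At an unadjusted p under 0.05, 1 member was higher and 2 were lower, beside 12.2% of all genes. Irf7 had the smallest p, at 7.36, 6.94 and 5.06 CPM in GF×GF and 1.58 and 2.78 CPM in CR×CR glands (log2 difference 1.40 ± 0.39, SE, adjusted p = 0.201, limma, Benjamini-Hochberg). Stat2, which works together with IRF9, had 39.9, 47.8 and 37.3 CPM in GF×GF glands, against 68.6 and 59.9 CPM in CR×CR glands. Its difference of -0.62 ± 0.18 (SE, adjusted p = 0.212 in the same test) did not pass, nor did that of the GTPase Gbp3, at -1.31 ± 0.52. Oas1a, Oas1g, Oas2, Oasl1, Isg15, Mx2, Cmpk2 and Rtp4 were below the filter.

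**Figure D2:**
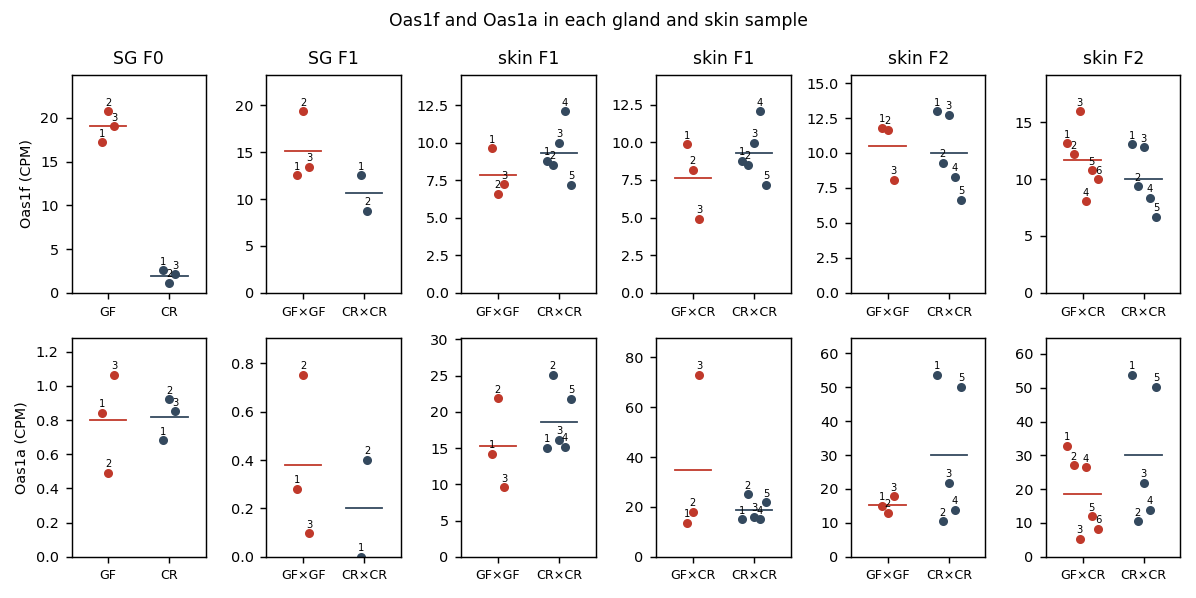
CPM of Oas1f (upper row) and Oas1a (lower row) on linear axes from 0 in each numbered gland and skin sample, with the group mean as a line. In F0 glands Oas1f lies at 17.2 to 20.8 CPM in GF and 1.147 to 2.56 CPM in CR mice while Oas1a is at most 1.06 CPM, and in F1 skin GF×CR mouse 3 is lowest for Oas1f, at 4.92 CPM, and highest for Oas1a, at 73.0 CPM.

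In F1 skin the members were set apart in a single GF×CR mouse. GF×CR mouse 3 had the highest value of 8 mice for 32 of 34 members, whereas it had the highest value for 6.75% of all tested genes and was among the lowest 2 mice for 53.9% of them. Its level over the median of the other 7 mice had a median of 3.29 over the members (range 0.561 to 10.5), with 27 members at 2 or more and 13 at 4 or more. The exceptions were Oas1f and the chemokine Cxcl10.

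These 32 members included genes of every functional group of the list. Isg15, a ubiquitin-like protein attached to other proteins during the response, was at 4.01, 6.16 and 59.3 CPM in GF×CR mice, against 8.31, 10.1, 7.03, 6.54 and 7.63 CPM in CR×CR mice. Ifit3, which binds viral RNA together with IFIT1, was at 19.5, 27.8 and 179.6 CPM in GF×CR and 20.6, 45.5, 23.1, 32.8 and 27.01 CPM in CR×CR mice. The synthetase Oas3 was at 14.4, 20.4 and 163.9 CPM in GF×CR and 15.6, 35.4, 13.95, 13.8 and 28.02 CPM in CR×CR mice. In each of these genes GF×CR mice 1 and 2 lay within or below the CR×CR range, and mouse 3 lay above every CR×CR mouse. Irf7 behaved in the same way, at 28.9, 43.1 and 239.6 CPM in GF×CR and 55.9, 59.3, 40.05, 30.7 and 45.9 CPM in CR×CR mice. So did Bst2, the tetherin that holds budding virus at the cell surface, at 19.4, 27.1 and 109.8 CPM in GF×CR and 16.97, 29.4, 19.95, 8.19 and 28.2 CPM in CR×CR mice. The ratio of mouse 3 to the median of the other mice was 6.57 for Rsad2 (viperin), 6.41 for Ifit2 and 3.94 for Ifit1 among the antiviral effectors, 6.08 for Ifi44, and 4.93 for Oasl1, 3.26 for Oasl2 and 2.16 for Oas2 among the Oas genes. It was 5.13 for Mx1 and 3.84 for Mx2, dynamin-like GTPases that trap viral particles, 3.88 for Cmpk2, 4.02 for Zbp1 and 3.01 for Usp18, the protease that removes ISG15. Trim30a, Xaf1, Stat2, Parp14, Gbp3, Rtp4, Ifi27l2a and the RNA helicase Dhx58 lay between 2.07 and 3.29, and the RNA sensor Ifih1 (MDA5), Gbp2 and Isg20 between 1.73 and 1.85. Some members were only slightly above the other mice in mouse 3, such as the RNA sensor Ddx58 (RIG-I), at 82.4 CPM there against 36.4 to 74.1 CPM in the other mice, and the transcription factor Irf9, at 52.4 CPM against 33.4 to 42.7 CPM.

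No member passed between GF×CR and CR×CR F1 skin in limma, beside 0.0537% of all genes. None was past an unadjusted p under 0.05 either, beside 7.08% of all genes. The members' median log2 difference was 0.47, beside -0.08 over all genes, with 32 of 34 above 0, beside 36.5% of all genes. Without GF×CR mouse 3 the members' median was -0.07 and 12 were above 0. Bst2 had the smallest p (1.03 ± 0.53, SE, adjusted p = 0.738, limma, Benjamini-Hochberg), then the dynamin-like GTPase Mx1 (0.87 ± 0.45) and Gbp3 (0.56 ± 0.34). Without mouse 3 the Bst2 difference was 0.28.

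**Figure D3:**
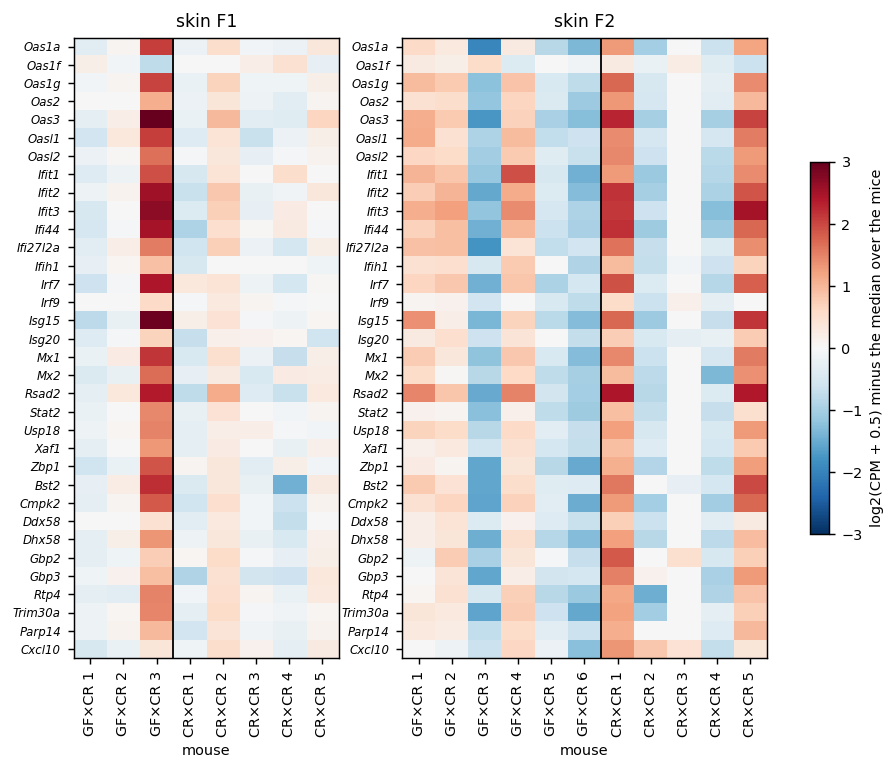
Each member (rows) in each mouse (columns) of the GF×CR and CR×CR groups of F1 and F2 skin, coloured by log2(CPM + 0.5) minus the median over the mice of that table. GF×CR mouse 3 of F1 and CR×CR mice 1 and 5 of F2 are high over most rows, and the Oas1f row is low in GF×CR mouse 3 of F1 and CR×CR mouse 5 of F2 but not in CR×CR mouse 1 of F2.

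Genes of the same pathway outside the list showed the same mouse. Of 60 tested further interferon-induced genes, 47 were highest in GF×CR mouse 3, and so were 7 of 14 tested nucleic acid sensors and their controllers. Of 17 receptor and JAK-STAT genes, 3 were highest in this mouse and 9 in CR×CR mouse 2. Over all tested genes the shares were 6.75% for GF×CR mouse 3 and 31.9% for CR×CR mouse 2. Of the ligands, Ifnb1 was at 0.146 CPM in mouse 3 and listed at 0 in the other 7 mice, Ifng was listed at 0 in it, and Ifnk was at 1.55 CPM against 0.872 to 1.32 CPM in the other mice. The Ifnb1 value stands for only a few reads. The summed T cell, dendritic cell and macrophage markers were not highest in this mouse. T cell markers summed to 18.4 CPM in mouse 3 and 23.5 to 46.8 CPM in the other mice, dendritic cell markers to 48.5 against 54.9 to 96.2 CPM, and macrophage markers to 2077 against 703.6 to 3186 CPM. None of the 8 tested markers of each of these lists was highest in this mouse, while 4 of 6 fibroblast markers were, at a sum of 12240 against 6592 to 9918 CPM, and keratinocyte markers had their lowest sum there, 1080 CPM against 1705 to 4653 CPM. Their part in the result was not tested.

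In GF×GF F1 skin, mouse 2 was among the highest 2 of 8 mice for 27 of 34 members, beside 28% of all genes, and CR×CR mouse 2 for 31 of 34, beside 57.6%. GF×GF mouse 2 was the lowest of the 8 for Oas1f, and among the lowest 2 for 19.2% of all genes. None of 34 members passed in limma against CR×CR skin, beside 0.09% of all genes, and 2 were lower at an unadjusted p under 0.05, beside 8.93%. They were Trim30a, a TRIM protein induced by interferon, and the GTPase Gbp2. Gbp2 was found at 17.2, 44.4 and 15.3 CPM in GF×GF mice, against 37.7, 53.5, 34.6, 30.2 and 40.7 CPM in CR×CR mice. GF×GF mice 1 and 3 were below all CR×CR mice and mouse 2 was among them (log2 difference -0.75 ± 0.32, SE, adjusted p = 0.557, limma, Benjamini-Hochberg). Trim30a gave -0.74 ± 0.30 at the same adjusted p, and the receptor transporter Rtp4 gave -0.55 ± 0.28. The members' median was -0.27, beside -0.20 over all genes, with 31 of 34 below 0 and only 15.6% of all genes above 0. After median ratio scaling it was -0.05, with 19 below 0, and without GF×GF mouse 3 it was 0.10. GF×GF mouse 3 was among the lowest 2 of 8 mice for 32 of 34 members and for 66.0% of all tested genes. The 5 CR×CR mice are the same in the GF×CR and GF×GF tables of a generation, so these comparisons are not independent.

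In F2 skin the members were highest in 2 of the 5 CR×CR mice. In the table with GF×CR mice, CR×CR mouse 1 was among the highest 2 of 11 mice for 32 of 34 members and CR×CR mouse 5 for 27. Over all tested genes the shares were 48.9% for mouse 1 and 3.13% for mouse 5. Mouse 1 was thus high for many genes, and mouse 5 was high for few genes besides the members.

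Isg15 was at 2.86, 6.999 and 21.8 CPM (lowest, median and highest of 6) in GF×CR mice, against 28.2, 3.61, 8.19, 4.91 and 37.8 CPM in CR×CR mice. Ifit3 was at 11.7, 38.6 and 73.5 CPM over the GF×CR mice in the same order, against 119.9, 17.5, 27.3, 10.99 and 156.5 CPM in CR×CR mice. CR×CR mice 1 and 5 lay above every GF×CR mouse in both genes, and the other 3 CR×CR mice lay within or below the GF×CR range. Oas3 was at 6.18, 23.2 and 46.7 CPM over GF×CR mice and 108.0, 10.8, 21.9, 10.7 and 90.9 CPM in CR×CR mice, and Irf7 at 15.8, 49.4 and 78.4 CPM over GF×CR mice and 166.0, 32.6, 43.5, 23.8 and 150.9 CPM in CR×CR mice. The GF×CR mice were themselves spread. Mice 1, 2 and 4 had mean levels of 5.01, 4.95 and 5.11, and mice 3, 5 and 6 had 3.35, 3.95 and 3.52. The ratio of the highest to the lowest mouse ran from 2.39 for Oas1f and 2.53 for Irf9 to 16.6 for the antiviral effector Rsad2 (viperin) and 17.5 for Oas3.

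The group differences in F2 skin were small beside this spread. None of 34 members passed in limma in GF×CR skin, where 0% of all genes did, and none was past an unadjusted p under 0.05, beside 2.22% of all genes. The smallest p belonged to the chemokine Cxcl10 at 0.452, 1.52 and 2.99 CPM (lowest, median and highest) in GF×CR and 5.23, 3.46, 2.55, 0.882 and 2.43 CPM in CR×CR mice, with a log2 difference of -0.71 ± 0.36 (SE, adjusted p = 1.000, limma, Benjamini-Hochberg). Gbp3 gave -0.72 ± 0.42 and Gbp2 -0.63 ± 0.37. The members' median was -0.45, beside 0.02 over all genes, with 32 of 34 below 0 and 54.7% of all genes above 0. It was -0.18 without CR×CR mouse 1 and -0.21 without CR×CR mouse 5.

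In F2 GF×GF skin none of 34 members passed in limma, beside 0.0418% of all genes, and none was past an unadjusted p under 0.05, beside 1.75%. Irf7 was at 35.1, 33.7 and 33.8 CPM in GF×GF mice and 166.0, 32.6, 43.5, 23.8 and 150.7 CPM in CR×CR mice. Bst2 had the smallest p, at 14.8, 13.9 and 13.2 CPM in GF×GF and 51.0, 16.7, 13.9, 11.5 and 67.2 CPM in CR×CR mice (log2 difference -0.81 ± 0.50, SE). Xaf1, an inducer of apoptosis, and the ADP-ribosyltransferase Parp14 both gave -0.53. The members' median was -0.54, beside 0.00 over all genes, with 33 of 34 below 0 and 50.2% of all genes above 0. It was -0.26 without CR×CR mouse 1 and -0.30 without CR×CR mouse 5.

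The spread of the members between mice of a group was larger than that of most genes in skin. The median within-group SD on the log2 scale was 0.676 over the members and 0.282 over all genes in F1 GF×CR skin, and 24 of 34 members were in the highest 10% of all genes. In the F2 table with GF×CR mice it was 0.933 against 0.371, with 28 of 34 in the highest 10%. In F2 GF×GF skin it was 0.861 against 0.361, with 26 of 34, and in F1 GF×GF skin 0.492 against 0.290, with 13 of 34. In ileum it was 0.586 against 0.479, with 1 of 32 members in the highest 10%, and in liver 0.503 against 0.372, with 3 of 33. In embryos 6 of 10 tested members were in the highest 10% in each morula comparison, and at the 4-cell stage 4 of 10 in GF×CR, 5 of 11 in CR×GF and 3 of 7 in RAG×WT embryos.

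In the 2 CR×CR F2 mice with high members, the other genes of the pathway differed. Of 59 tested further interferon-induced genes, 50 were highest in mouse 1 and 6 in mouse 5 of the 11 mice. Over all tested genes the shares were 31.9% for mouse 1 and 0.901% for mouse 5. Macrophage markers summed to 259.1 to 1876 CPM in GF×CR mice, and to 2947 CPM in CR×CR mouse 1, where 7 of 8 were highest, and 1093 CPM in CR×CR mouse 5, where 0 were. T cell markers summed to 35.97 CPM in mouse 1 and 17.2 CPM in mouse 5, and dendritic cell markers to 94.4 CPM in mouse 1 and 44.3 CPM in mouse 5. Neutrophil markers summed to 165.7 CPM in mouse 1 and 20.4 CPM in mouse 5, the lowest of the 11. The part of these cells in the result was not tested.

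Oas1f was low in some of the skin mice in which most members were high. In F1 it was at 9.88, 8.17 and 4.92 CPM in GF×CR mice, against 8.77, 8.50, 9.98, 12.1 and 7.19 CPM in CR×CR mice, so that mouse 3, highest for 32 members, was the lowest of 8. In F2 it was at 8.05, 11.5 and 15.98 CPM (lowest, median and highest) in GF×CR mice, against 13.04, 9.35, 12.8, 8.34 and 6.68 CPM in CR×CR mice. CR×CR mouse 5 was the lowest of 11, and GF×CR mouse 3, which was among the lowest 2 mice for 27 of 34 members, was the highest. CR×CR mouse 1 was high for Oas1f as for the other members, at rank 3 of 11 from the top, and at rank 1 of 8 in the table with GF×GF mice. F1 CR×CR mouse 2, among the highest 2 mice for 31 of 34 members, was at rank 5 of 8 for Oas1f. Many other genes were also low in these mice. F1 GF×CR mouse 3 was among the lowest 2 for 53.9% of all tested genes, and F2 CR×CR mouse 5 for 36.9%. F2 GF×CR mouse 3 was among the highest 2 for 21.7%. The Oas1f differences did not pass (-0.30 ± 0.24 in F1 GF×CR, -0.24 ± 0.20 in F1 GF×GF, 0.22 ± 0.22 in F2 GF×CR and 0.09 ± 0.27 in F2 GF×GF skin, SE). In ileum it was listed at 0 in the GF×CR mice and at most at 0.258 CPM in CR×CR mice, and in liver it was listed at 0 in all 7 mice.

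In ileum none of 32 members tested passed in limma, where 0% of all genes did, and 1 was higher at an unadjusted p under 0.05, beside 4.5% of all genes. It was Ifit3, at 19.2, 20.2 and 18.8 CPM in GF×CR and 15.6, 12.1, 11.2 and 12.5 CPM in CR×CR mice, with no overlap (log2 difference 0.59 ± 0.26, SE, adjusted p = 0.943, limma, Benjamini-Hochberg). Cmpk2 was at 49.6, 40.1 and 63.3 CPM in GF×CR and 45.5, 23.1, 20.6 and 40.5 CPM in CR×CR mice, and Stat2 at 144.0, 142.8 and 103.4 CPM in GF×CR and 142.5, 77.5, 66.3 and 103.2 CPM in CR×CR mice. Both overlapped and neither passed (0.70 ± 0.32 and 0.46 ± 0.27, SE). The members' median was 0.27, beside -0.08 over all genes, and 0.07 without CR×CR mouse 3.

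The CR×CR ileum mice bracketed the GF×CR mice. CR×CR mouse 1 was highest for 16 of 32 members, beside 8.5% of all genes, and CR×CR mouse 3 was among the lowest 2 of 7 for 26 of 32, beside 24.5% of all genes. Oasl1, an Oas-like protein that limits Irf7 translation in mice, was at 87.4, 145.1 and 65.6 CPM in GF×CR and 174.5, 91.6, 27.6 and 100.3 CPM in CR×CR mice. Zbp1, a sensor of Z-form nucleic acid, was at 93.1, 158.2 and 104.4 CPM in GF×CR and 260.0, 134.3, 98.7 and 159.9 CPM in CR×CR mice. In both genes the CR×CR range was wider than the GF×CR range and held most of it. B cell markers summed to 22.9 to 804.5 CPM in GF×CR and 8.84 to 990.3 CPM in CR×CR mice, and their part in the members' levels was not tested.

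In liver none of 33 members tested passed in limma, beside 0.0343% of all genes, and 1 was lower at an unadjusted p under 0.05, beside 15.8% of all genes. Stat2 was at 92.1, 66.1 and 88.3 CPM in GF×CR and 186.7, 93.7, 110.1 and 201.1 CPM in CR×CR livers. All GF×CR values were below all CR×CR values, the closest pair being 92.1 and 93.7 CPM, and the difference was -0.78 ± 0.27 (SE, adjusted p = 0.228, limma, Benjamini-Hochberg). Mx1 was at 0.413, 1.48 and 0.654 CPM in GF×CR and 1.76, 1.56, 1.54 and 3.42 CPM in CR×CR livers (-0.95 ± 0.47), and Gbp3 was at 3.85, 8.12 and 6.10 CPM in GF×CR and 2.64, 2.53, 4.95 and 3.42 CPM in CR×CR livers (0.73 ± 0.36). The tetherin gene Bst2 was at 247.8, 192.0 and 182.8 CPM in GF×CR and 233.6, 285.3, 270.2 and 223.6 CPM in CR×CR livers. The members' median was -0.10, beside -0.02 over all genes.

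Embryos expressed few of the members. At the 4-cell stage 5 members were listed at 0 in all 70 embryos, 19 were at 1 TPM or more in under 10% of them, and 8 had a median of 1 TPM or more in any group. At the morula stage 5 members were listed at 0 in all 88 embryos, 21 were at 1 TPM or more in under 10% and 9 had such a median. Ifit1 was at 0 in every morula and Ifit2 did not exceed 0.14 TPM. The members with such a median in some group of both stages were the transcription factors Stat2 and Irf9, the effectors Xaf1, Bst2 and Zbp1, and the Oas-like Oasl2. At the 4-cell stage the exonuclease Isg20 and the helicase Dhx58 joined them, and at the morula stage Cxcl10 and the synthetases Oas1a and Oas1g. Oas1a had medians of 6.38 TPM in GF×CR morulae, against 4.55 TPM in CR×CR morulae.

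The control embryos were of 2 kinds, which bears on every embryo result. All GF×CR and CR×GF embryos had more Marchf2 than Mtarc2, all RAG×WT embryos the reverse, and CR×CR embryos were split, with 19 of the Marchf2-higher and 6 of the Mtarc2-higher kind at the 4-cell stage, and 21 and 22 at the morula stage. The sets were found in the data and the labels do not name them, but they followed the sample numbers of the CR×CR embryos without exception. The Marchf2-higher embryos were numbers 1 to 19 at the 4-cell stage and 1 to 21 at the morula stage. The Mtarc2-higher embryos were numbers 20 to 25 and 22 to 43. Whether the sets stand for separate collections was not tested. Set and cross cannot be told apart except against the CR×CR embryos of the same set. For each member called in embryos the value against those embryos is given too.

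In 4-cell RAG×WT embryos 1 of 7 members tested was higher and none lower, beside 5.53% of all genes. Xaf1 was at 1.06, 11.1 and 50.8 TPM (lowest, median and highest) in RAG×WT and 0, 3.91 and 28.1 TPM in CR×CR embryos. The ranges overlapped and the RAG×WT median was above the CR×CR median (log2 difference 1.62 ± 0.40, SE, adjusted p = 0.0119, limma, Benjamini-Hochberg). The CR×CR median was 9.43 TPM in the 6 embryos of the RAG×WT kind and 2.46 TPM in the other 19. Against those 6 embryos the difference was 0.49 at an adjusted p of 1.000 (limma), and 0 genes of any kind passed. Stat2 was at 19.04, 46.8 and 106.9 TPM in RAG×WT and 5.59, 34.2 and 67.4 TPM in CR×CR embryos and did not pass (0.57 ± 0.23), nor did Irf9 (-0.69 ± 0.48).

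With GF gametes, no member passed at the 4-cell stage. In GF×CR embryos 0 of 10 members passed in limma, beside 0.0102% of all genes, with 1 higher and 1 lower at an unadjusted p under 0.05, beside 5.19%. Irf9 was at 0, 8.78 and 28.98 TPM in GF×CR and 0, 16.7 and 38.01 TPM in CR×CR embryos (-1.19 ± 0.51, SE). Isg20 was at 0, 6.36 and 46.5 TPM in GF×CR and 0, 2.46 and 19.02 TPM in CR×CR embryos (1.29 ± 0.64), and Dhx58 gave 0.86 ± 0.56. In CR×GF embryos 0 of 11 members passed in limma, beside 0.337% of all genes, with 1 higher at an unadjusted p under 0.05, beside 11.4%. It was Isg20 again, at 0, 8.85 and 52.9 TPM in CR×GF embryos against the same CR×CR embryos (1.92 ± 0.75, adjusted p = 0.307, limma). Both comparisons share their controls, so the 2 Isg20 values are not independent. Oasl2 was at 0, 1.06 and 41.6 TPM in CR×GF and 0, 6.91 and 33.9 TPM in CR×CR embryos (-1.06 ± 0.78), and Isg15 gave -0.47 ± 0.49.

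In GF×CR morulae 2 of 10 members tested were lower and none higher, beside 30.2% of all genes. At an unadjusted p under 0.05, 3 were lower and none higher, beside 41.5% of all genes. Xaf1 was at 1.06, 3.51 and 8.68 TPM in GF×CR and 1.15, 7.11 and 38.3 TPM in CR×CR morulae (-1.13 ± 0.32, SE, adjusted p = 0.0063, limma, Benjamini-Hochberg). Stat2 was at 0, 2.64 and 7.19 TPM in GF×CR and 0, 4.68 and 27.1 TPM in CR×CR morulae (-0.998 ± 0.37, adjusted p = 0.0348 in the same test). In both genes the lowest values were alike and the highest CR×CR values had no counterpart. These lay with the control set: the CR×CR median of Xaf1 was 3.49 TPM in the 21 morulae of the GF×CR kind and 17.9 TPM in the other 22, and that of Stat2 was 2.34 TPM and 8.08 TPM in the same order. Against the 21 morulae the Xaf1 difference was 0.04 and the Stat2 difference -0.45, at adjusted p of 0.920 and 0.399 (limma), while 1271 genes passed. Cxcl10 gave -1.05 ± 0.43 and did not pass. The members' median was 0.01, beside -0.32 over all genes, and after median ratio scaling 0.19 beside -0.17.

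In RAG×WT morulae 1 of 10 members tested was lower and none higher, beside 2.68% of all genes. Bst2 was at 15.8, 55.2 and 117.9 TPM in RAG×WT and 32.4, 81.5 and 198.9 TPM in CR×CR morulae, with overlapping ranges (-0.53 ± 0.15, SE, adjusted p = 0.0435, limma, Benjamini-Hochberg). Unlike Xaf1 and Stat2, Bst2 had close CR×CR medians in both sets, 76.1 TPM in the RAG×WT kind and 81.5 TPM in the other. Against the CR×CR morulae of the RAG×WT kind its difference was -0.55, of nearly the same size, at an adjusted p of 0.416, and 3 genes of any kind passed. Xaf1 was at 4.30, 13.7 and 112.7 TPM in RAG×WT and 1.15, 7.11 and 38.3 TPM in CR×CR morulae (0.87 ± 0.27, adjusted p = 0.0528, limma), and -0.24 against the same set. Stat2 gave 0.60 ± 0.28 and did not pass.

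**Figure D4:**
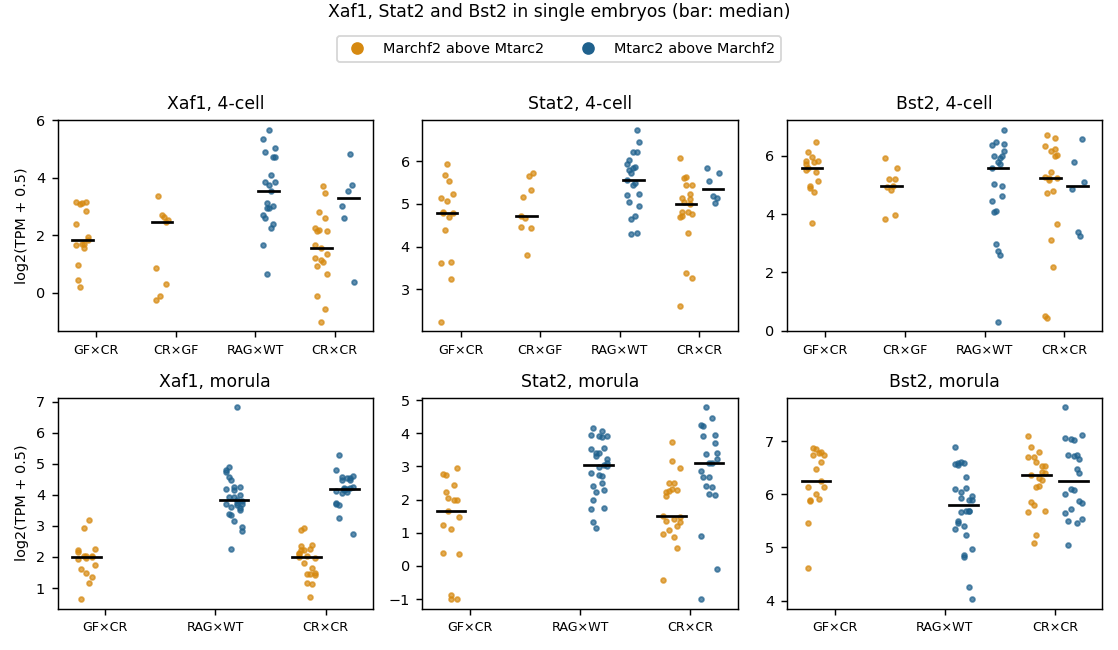
Log2(TPM + 0.5) of Xaf1, Stat2 and Bst2 in single embryos by stage (rows) and cross, with 1 point per embryo, coloured by which of Marchf2 and Mtarc2 was higher, and the median of each colour as a bar. Among CR×CR morulae Xaf1 has a median of 17.9 TPM in the Mtarc2-higher and 3.49 TPM in the Marchf2-higher embryos, whereas Bst2 has 76.1 TPM and 81.5 TPM.

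**Figure D5:**
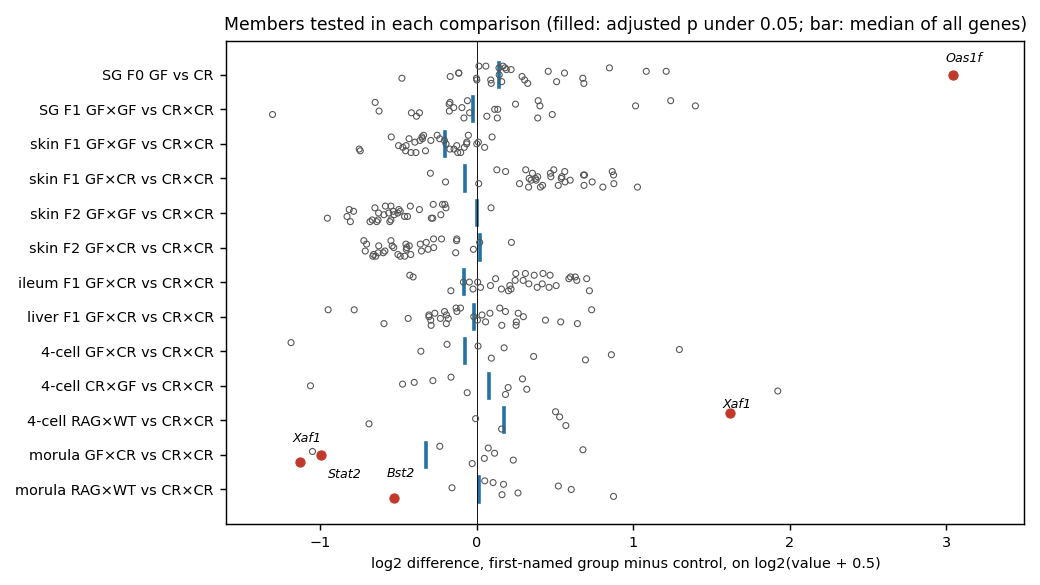
Log2 difference of each tested member (horizontal axis, 1 point per member) in each comparison (rows), with members at an adjusted p under 0.05 filled and named and the median of all genes as a bar. Oas1f in F0 glands, at 3.04, is the only filled point of the mouse comparisons, and the other filled points, Xaf1 in 2 rows, Stat2 and Bst2, belong to embryo comparisons.

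Of 4 further lists of the pathway, few genes passed. The receptor and JAK-STAT list (17 genes), the ligands (10 genes, of which 0 or 1 could be tested in any comparison), the nucleic acid sensors (16 genes, 14 listed) and further interferon-induced genes (68 genes, 64 or 65 listed) had 0 genes past the threshold in F0 SGs, all 4 skin comparisons, ileum, liver, 4-cell GF×CR and 4-cell RAG×WT embryos in limma. Among the further interferon-induced genes, an unadjusted p under 0.05 was reached by 11 higher and 1 lower of 51 in F0 SGs, 0 higher and 6 lower of 60 in F1 GF×GF skin, 5 higher and 2 lower of 60 in F1 GF×CR skin, none of 59 in either F2 skin comparison, 3 higher and 1 lower of 61 in ileum, 4 higher and 6 lower of 57 in liver, and 1 higher in 4-cell GF×CR and 4-cell RAG×WT embryos each. Over all genes the share past an unadjusted p under 0.05 was 19.8% in F0 SGs, 8.93% and 7.08% in F1 GF×GF and GF×CR skin, 1.75% and 2.22% in F2 GF×GF and GF×CR skin, 4.5% in ileum, 15.8% in liver, and 5.19% and 21.8% in 4-cell GF×CR and RAG×WT embryos. In the receptor and JAK-STAT list and among the sensors the counts in these comparisons ran from 0 to 2 higher and 0 to 4 lower. The unadjusted counts cover only the comparisons in which none of these genes passed. They are not given for F1 SGs, 4-cell CR×GF embryos and morulae, so they do not describe the lists there. In F1 SGs 2 genes were higher in GF×GF mice, beside 0.717% of all genes that passed. B2m, the invariant chain of MHC class I, was at 1202.5, 1690.9 and 1087.5 CPM in GF×GF glands, against 532.3 and 637.7 CPM in CR×CR glands (log2 difference 1.16). Tlr3, an endosomal receptor for double-stranded RNA, was at 12.5, 6.71 and 4.55 CPM in GF×GF glands and listed at 0 in both CR×CR glands. In F0 glands B2m was at 963.2 to 1192 CPM in GF and 1097 to 1148 CPM in CR mice, and Tlr3 was listed at 0 to 13.7 CPM in GF and 2.79 to 7.16 CPM in CR mice, without a called difference.

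In embryos, Psme2, a proteasome activator subunit, was higher in 4-cell CR×GF embryos, beside 0.337% of all genes that passed. It was at 15.5, 26.1 and 83.5 TPM in CR×GF and 0, 4.93 and 37.5 TPM in CR×CR embryos (log2 difference 2.67, adjusted p = 0.0499, limma). Psmb9, an immunoproteasome subunit, was lower in RAG×WT morulae, beside 2.68% of all genes that passed. It was at 0, 2.67 and 16.99 TPM in RAG×WT and 0, 10.0 and 31.7 TPM in CR×CR morulae (-1.59). In GF×CR morulae 3 of 10 receptor and JAK-STAT genes, 4 of 9 sensors and 5 of 21 further induced genes were lower and none higher, beside the 30.2% of all genes that passed. Among them were the receptor genes Ifnar1 (-0.78) and Ifngr1 (-1.02), the kinase Jak1 (-1.08), the adaptor Ticam1 (-0.70), the kinase Tbk1 (-0.99) and the DNA exonuclease Trex1 (-1.65). None of these genes, Psme2 and Psmb9 included, was compared within the sets of control embryos.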

How the data were processed

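Members were matched by symbol in every table. The genes and lists were chosen with earlier results of these data known. SGs and skin were sequenced from ribosome-depleted total RNA, ileum and liver from mRNA, and embryos one by one from polyA RNA. CPM values of SGs, skin and ileum were made by the authors with kallisto and Ensembl annotation, and CPM values of liver were deposited after RSEM. Embryo values were deposited as TPM from RSEM on mm10, although under the name CPM, in R 4.2. The versions of kallisto and RSEM are not given in the sources used here. The values were not counts, so no count test was run. Each comparison was fitted alone with limma 3.58.1 (R 4.3.3, variance trend, two-sided) on log2(value + 0.5), keeping genes that reached 1 in a number of samples equal to the smaller group's size, with Benjamini-Hochberg adjustment over all genes tested and calls at an adjusted p under 0.05. This understates changes of low genes. The fit was tested on simulated data. Alternatives were pseudocounts of 0.1 and 1, no filter, a filter at 5, median ratio scaling, a replicate block, each mouse left out, Y-linked genes as a covariate, and for embryos all groups of a stage and control embryos of the same set. In liver the Y-linked covariate was the same in every mouse and so left the fit unchanged. Members named in full were those called, or the 3 of smallest p where fewer were called. From the SG and skin data, 27 rows named as dates were left out. The 5 CR×CR mice of a skin generation are in both of its tables, where their member values differed by at most 5.17% in F1 and 5.81% in F2. Same-numbered ileum samples deviated together (correlations of 0.212 to 0.273 over 3 pairs, by number only); the block left 0 members called there too. Depth was estimated from the smallest common step of CPM values.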

Additional observations from a re-analysis of the deposited data

Results flagged for a closer look

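Among 30 groups and values checked, 4 had a sample far from the others of its group, and about 1 in 20 is set apart by chance. In liver, Mx1 of CR×CR mouse 4 was at 3.424 CPM, and the nearest of the 4 CR×CR mice was at 1.759 CPM. In 4-cell CR×GF embryos, 1 of 9 had a mean log2 level of the members of -0.2662 (nearest -0.06535). Isg20 was at 52.94 TPM in another of these embryos (nearest 24.7 TPM), and Oasl2 at 41.56 TPM in a further one (nearest 13.19 TPM).

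Among 49 pairs of comparisons and values checked, 3 met a strict rule for opposite directions. All samples of the tested group had to lie above the control mean in a comparison and below it in the other. Pairs that differed only in the sign of the group difference were not counted, and none of these differences between comparisons was tested. Cmpk2 had a log2 difference of 1.21 in F0 SGs, where the alternatives gave 0.42 to 1.76, and -0.4578 in F1 SGs, where it was below the filter, at most at 1.34 CPM. Bst2 had 1.027 in F1 GF×CR skin and -0.2921 in F1 GF×CR liver. Stat2 had 0.4618 in F1 GF×CR ileum and -0.7836 in F1 GF×CR liver.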

How the results depend on the processing

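The number of members called was 0 under every alternative in F1 SGs, all skin comparisons, ileum, liver, 4-cell GF×CR and 4-cell CR×GF embryos. In F0 SGs it was 1, but 0 once the Y-linked mean, which was nearly alike in all these glands, entered the fit. Leaving out each mouse gave 1 to 1. In 4-cell RAG×WT embryos it was 1, and 0 against control embryos of the same set. In GF×CR morulae it was 2, and 3 with a pseudocount of 0.1 (Cxcl10 added), 1 without a filter, 1 with median ratio scaling and 0 against control embryos of the same set. In RAG×WT morulae it was 1, and 0 without a filter, 2 with a filter at 5, 2 with median ratio scaling, 2 with all groups of the stage and 0 against control embryos of the same set. Against control embryos of the same set Xaf1 was at 0.037 in GF×CR and -0.24 in RAG×WT morulae. With the replicate block 0 members were called in GF×CR morulae, where Xaf1 was at 0.021, and 3 in RAG×WT morulae. Embryos share only a number, since 1 of 17 and 10 of 28 same-numbered pairs correlated above 0.1. In CR×CR embryos that number also follows the control set. The block changed no other count. The causes were not tested. Of 156 medians over the members under alternatives, 138 kept their sign. In F1 SGs the median of -0.05 was -0.36 with the Y-linked covariate, 0.13 without CR×CR mouse 2 and -0.23 without CR×CR mouse 1. Leaving out embryos of few genes was not run, since 0 embryos met that rule. Groups of 2 to 6 mice, and depths of a few reads per CPM in the shallowest ileum library, limit what could be detected.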
